A study of Mus musculus with 24 samples.

Results

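The 31 genes described here cover the conversion of glucose to lactate and the best known targets of the hypoxia response. They were 8 genes of upper glycolysis, 2 that set the level of fructose 2,6-bisphosphate, 6 of lower glycolysis, 5 that decide the fate of pyruvate, 4 transporters of glucose and lactate, and 6 hypoxia targets. They were taken by gene symbol from the 49315 genes that the count tables list, and each symbol matched 1 gene. The cells were primary astrocytes from the brain cortex of wild-type C57BL/6J mouse embryos of a late stage, grown in medium with glucose and serum, in which all embryos of a pregnant mouse were pooled into a culture. Dishes received 0.1 Gy or 2 Gy of X-rays, or a mock irradiation (0 Gy), and were lysed 6 h or 24 h later. Each of the 6 combinations of dose and time had 4 libraries of polyadenylated RNA, numbered 1 to 4 and called biological repeats by the authors, and the mock-irradiated cells of each time were the controls of both doses. According to the paper, astrocytes were isolated anew for every experiment. Whether the 4 repeats came from separate litters is not given in the sources used here, so the SDs and p-values measure only the spread between these libraries, which may in part be technical. The question asked was how the radiation response of these cells looks at a low and a higher dose. The study's methods do not mention a low oxygen exposure, so the hypoxia targets are described here at their level in ordinary culture.

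Glycolysis splits glucose into pyruvate in the cytosol. Hexokinases trap glucose in the cell, phosphofructokinase sets the pace and is driven by fructose 2,6-bisphosphate, and pyruvate then either becomes lactate or enters the mitochondrion through the pyruvate dehydrogenase complex, which pyruvate dehydrogenase kinases switch off. Astrocytes are known as a glycolytic cell type of the brain that exports lactate. Many of the same genes are targets of the hypoxia-inducible factors, whose alpha subunits are marked by prolyl hydroxylases and removed through the von Hippel-Lindau protein as long as oxygen is present, and which bind DNA at the core letters ACGTG or GCGTG.

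Total counts per library ranged from 14742855 to 38194800, and the 31 genes together took 0.657% to 1.34% of them. Values of single libraries are CPM, the counts of a gene scaled by the library total and by TMM factors, which align libraries on the genes that most of them share. Of 10 astrocyte markers, Gfap, Aqp4, Slc1a3, Aldh1l1 and Glul had group means of 268 to 672 CPM, Gja1 and Sox9 of 120.3 to 250.2 and Slc1a2 of 45.6 to 58.0. S100b was at only 2.46 to 3.22 CPM, and Gjb6 was below 1 CPM in every library. The summed level of 10 microglia markers was 222 to 266 CPM in the 6 libraries of replicate 2 and 1462 to 2471 CPM in the 18 others, so replicate 2 stood apart in every group. The summed levels of the astrocyte, neuron and oligodendrocyte lineage markers were 2189.6 to 2736 CPM in replicate 2 and 2580.3 to 3263 CPM in the others, then 637 to 756 CPM in replicate 2 and 443 to 604 CPM in the others, and 624 to 898 CPM in replicate 2 and 409.7 to 789 CPM in the others. Markers of endothelium, mural cells and fibroblasts were at 3793 to 4564 CPM in replicate 2 and 3379 to 7685 CPM in the others, mostly Acta2 and Col1a1. In such bulk RNA, fewer cells of a type and less RNA per cell cannot be told apart. The main counts of called genes are therefore also given without replicate 2.

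Compared per kilobase of exon, the genes of the 31 ranged widely. The length is the exon length that the count tables list for each gene, so the order depends on it. The highest level was that of Gapdh at 382 ± 69.2 CPM per kb (SD over 24 libraries), the glyceraldehyde 3-phosphate dehydrogenase. It was followed by Ldhb, the lactate dehydrogenase subunit of oxidative tissues, at 352 ± 124 and by Pkm, the pyruvate kinase of brain and growing cells, at 272 ± 59.7 CPM per kb. Aldoa (aldolase), Pgk1 (phosphoglycerate kinase) and Eno1 (enolase) lay at 270.1 ± 58.3, 239 ± 26.6 and 233 ± 34.3 CPM per kb. Neighbours among these 6 differed by less than the larger of their SDs. Ldha, the other lactate dehydrogenase subunit, was lower at 115 ± 16.5 CPM per kb. In CPM without the length, Ldhb was at 552 and Ldha at 382, both below Eno1 at 1254 and Pkm at 1359. Among the hexokinases, Hk1 was at 21.2 ± 2.56 and Hk2 at 17.6 ± 6.76 CPM per kb over both times together. As group means, Hk2 was at 21.7 to 24.6 at 6 h and 10.6 to 12.2 at 24 h. Hk1 was at 20.9 to 21.6 at 6 h and 20.2 to 21.7 at 24 h. Of the phosphofructokinase subunits, Pfkm was the highest per kb at 55.0 ± 8.75 CPM per kb, with Pfkp at 28.0 ± 3.22 and Pfkl at 14.6 ± 4.05. In CPM without the length Pfkp was the highest of them, at 263, with Pfkm at 163 and Pfkl at 64.0. The listed exon lengths were 9395 bases for Pfkp and 2957 for Pfkm. Over both times together the transporters were led by Slc16a1, the lactate transporter MCT1, at 45.7 ± 6.93 CPM per kb, and Slc2a1, the glucose transporter GLUT1, at 43.0 ± 17.1. As group means at 6 h, Slc2a1 was at 56.4 to 60.8 and Slc16a1 at 40.7 to 43.9 CPM per kb. At 24 h Slc2a1 was at 25.3 to 29.1 and Slc16a1 at 48.2 to 49.5. Slc2a3, the neuronal glucose transporter GLUT3, was at 6.25 ± 2.62, and Slc16a3, the lactate exporter MCT4, at 3.44 ± 1.66 CPM per kb. The lowest levels were those of Car9, carbonic anhydrase 9, at 2.95 ± 1.45 and of Ankrd37 at 0.415 ± 0.131 CPM per kb. Ankrd37 had only 5 to 32 counts per library and shares 95.6% of its exon length with Lrp2bp on the other strand. Car9 shares 61.2% of its length with the antisense gene Gm12454, and whether strand was used in counting is not stated, so the levels of both are uncertain.

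**Figure D1:**
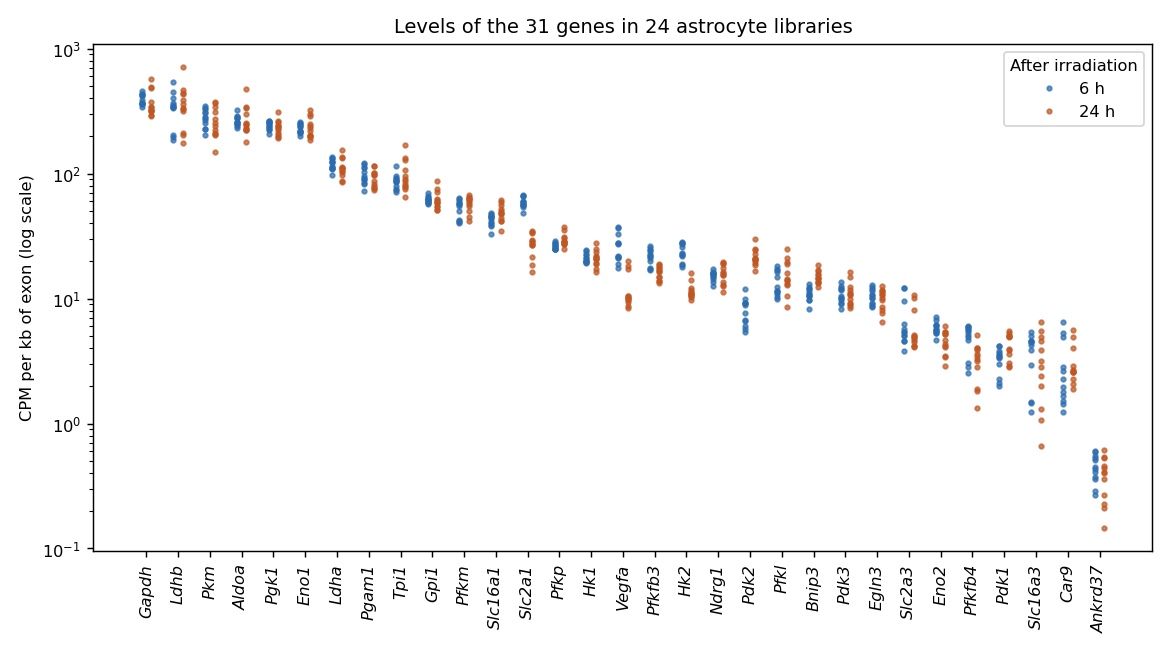
CPM per kb of exon on a log axis for each of the 31 genes, ordered by their mean over all libraries, with 1 point per library, blue for 6 h and orange for 24 h. Gapdh is highest at 382 CPM per kb on average and Ankrd37 lowest at 0.415. Over all doses, the 24 h points of Slc2a1 and Hk2 lie below their 6 h points and those of Pdk2 above, while those of Vegfa overlap.

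Time after mock or X-ray irradiation changed a few of these genes, and the same 4 at every dose. From 6 h to 24 h, Slc2a1, Hk2 and Vegfa (vascular endothelial growth factor A) fell by 1.03 to 1.25 on the log2 scale, and Pdk2, a pyruvate dehydrogenase kinase, rose by 1.16 to 1.56. Bnip3, a mitophagy receptor of the hypoxia response, was called higher only at 0.1 Gy, with a log2 fold change of 0.48 there. It was 0.48 at 0 Gy and 0.35 at 2 Gy. The other enzymes that carry the main flux of glycolysis were not called at any dose. A gene was called at a Benjamini-Hochberg adjusted p under 0.05 in edgeR's quasi-likelihood test over all tested genes, and all 31 genes passed the filter on low counts. With 1 library left out, as few as 1 of the 31 was called at 0 Gy, 3 at 0.1 Gy and 2 at 2 Gy.

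In mock-irradiated cells 3 of the 31 genes were called lower, against 3.46% of the 15887 genes tested, and 1 was called higher, against 3.24%. At 0.1 Gy 3 were called lower (5.33% of all genes tested) and 2 higher (4.57%), and at 2 Gy 3 were lower (3.92%) and 1 higher (3.02%). The lower calls made up 9.68% of the 31 genes at each dose and the higher calls 3.23% to 6.45%. The medians of the log2 fold changes over the 31 genes were -0.19 at 0 Gy, -0.02 at 0.1 Gy and 0.05 at 2 Gy, beside -0.02, -0.01 and -0.00 over all tested genes. The 4 libraries of 24 h lay wholly below the 4 of 6 h for 4 genes at 0 Gy (7.44% of all genes), for 3 at 0.1 Gy (9.38%) and for 3 at 2 Gy (9.36%). They lay wholly above for 2 genes, or 6.45%, at each dose, against 7.82%, 9.6% and 8.74% of all genes at 0, 0.1 and 2 Gy. Same-numbered libraries deviated together at 0.1 Gy and 2 Gy, least in replicate 1 at 2 Gy (r = 0.211), and at 0 Gy in all replicates but 3 (r = -0.00). With the replicate number as a block, 7 genes (22.6%) were called at 0.1 Gy, where the block called 25.7% of all genes, and 5 (16.1%) at 2 Gy, where it called 19.2%. With a correction for GC content and length in the blocked fit, 10 (32.3%) were called at 0.1 Gy and 9 (29%) at 2 Gy, beside 36.3% and 28.7% of all genes, and the genes this added are named below. Without replicate 2 the calls numbered 5 at 0 Gy, 6 at 0.1 Gy and 4 at 2 Gy, where that fit called 7.44%, 14.4% and 7.33% of all genes, and the 4 genes called at every dose were among them each time.

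Some markers of other cell types also differed in level between the times. Outside replicate 2, the summed microglia markers were at 1874 to 2471 CPM at 6 h and 1462 to 1831 CPM at 24 h in mock-irradiated cells, without overlap, at 1867 to 2331 CPM at 6 h and 1755 to 2089 CPM at 24 h after 0.1 Gy and at 1949 to 2120.3 CPM at 6 h and 1702 to 2119 CPM at 24 h after 2 Gy. In the same libraries the summed neuron markers were at 444 to 489 CPM at 6 h and 492 to 604 CPM at 24 h, 452 to 462 CPM at 6 h and 489 to 536 CPM at 24 h and 443 to 498 CPM at 6 h and 538 to 559 CPM at 24 h at 0, 0.1 and 2 Gy, without overlap at any dose. The share of all genes without overlap in these libraries was not counted. With replicate 2 included, the microglia sums and the neuron sums overlapped between the times at every dose. With all replicates in the fit, the median log2 fold changes from 6 h to 24 h at 0, 0.1 and 2 Gy were -0.27, -0.21 and -0.18 for microglia, -0.32, -0.31 and -0.54 for endothelium, mural cells and fibroblasts, -0.06, 0.09 and 0.18 for neurons, -0.17, -0.04 and 0.06 for the oligodendrocyte lineage and -0.07, 0.06 and 0.12 for astrocytes. No marker was called at 0 Gy. Of the astrocyte markers, Sox9 was called higher at 0.1 and 2 Gy, with log2 fold changes of 0.81 and 0.81. Of the neuron markers, Gad1, which makes GABA, was called lower at both doses, with -1.69 and -1.56, and Syt1, a protein of synaptic vesicles, was called higher at 0.1 Gy, with 0.88, both with group means under 5 CPM, while most of the neuron sum was Map2, Stmn2 and Tubb3. No microglia, endothelium, mural cell, fibroblast or oligodendrocyte lineage marker was called at any dose. The part of these markers in the changes of the 31 genes was not tested.

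**Figure D2:**
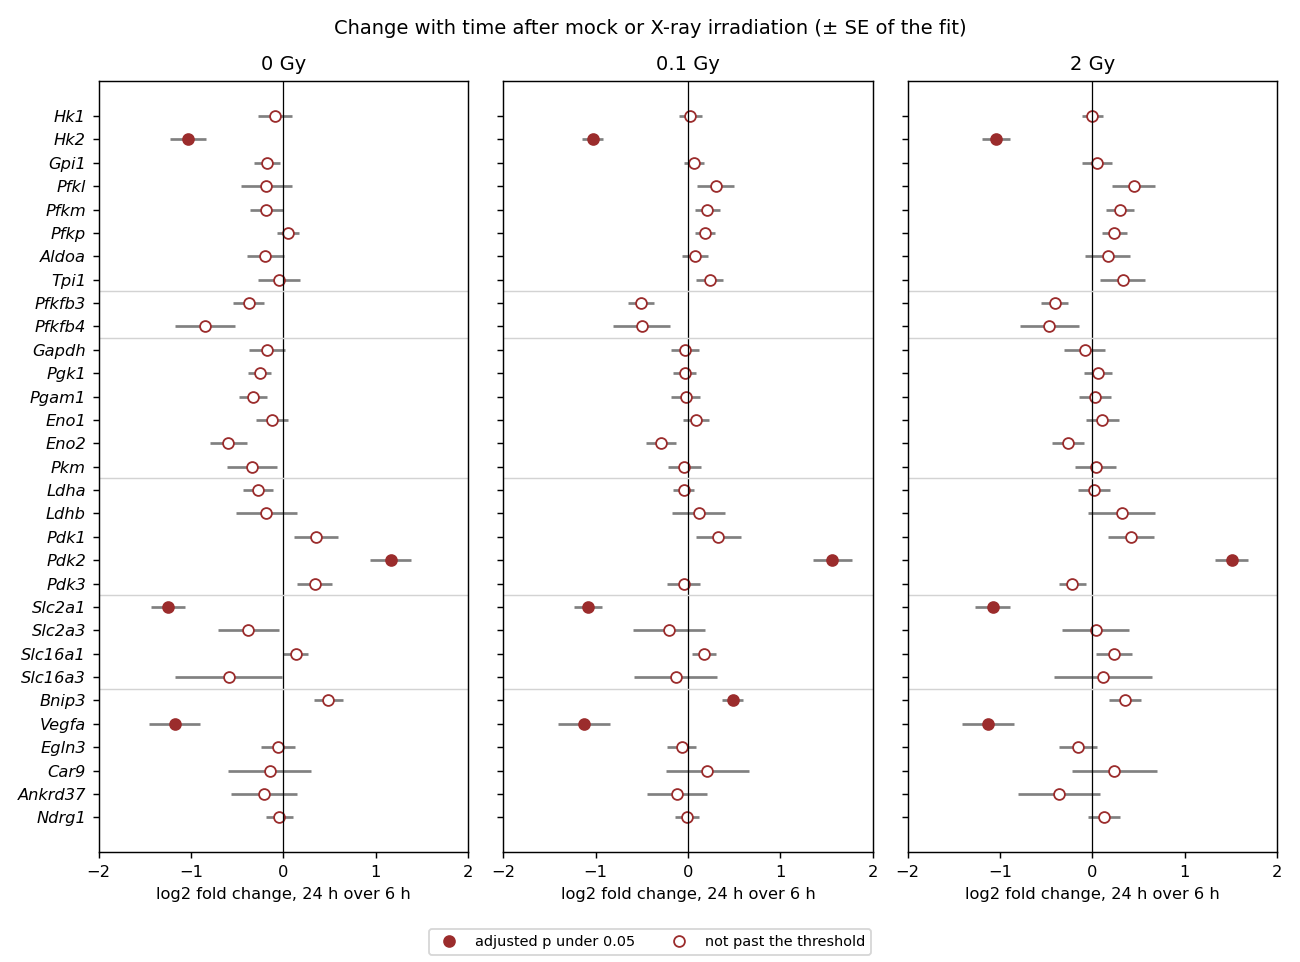
Log2 fold change from 6 h to 24 h for each of the 31 genes in panels for 0, 0.1 and 2 Gy, with bars for the SE of the fit. Filled points passed an adjusted p of 0.05 and open points did not, and grey lines divide the groups by role. Slc2a1, Hk2 and Vegfa are filled on the left and Pdk2 on the right of every panel, and Bnip3 is filled at 0.1 Gy.

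Uptake and release of sugar and lactate are described first. Slc2a1 (GRCm38 chr4:119108711-119137983, plus strand) encodes GLUT1, the main glucose transporter of astrocytes and of the vessel wall. In mock-irradiated cells it was at 230.2, 195, 211 and 197 CPM in replicates 1 to 4 at 6 h and at 95.2, 57.6, 99.0 and 103 CPM at 24 h. After 0.1 Gy the values were 201, 208, 237 and 206 CPM at 6 h and 93.2, 75.3, 121 and 119 CPM at 24 h, and after 2 Gy they were 234, 198, 189.6 and 169.9 CPM at 6 h and 94.9, 65.3, 118 and 101 CPM at 24 h. Every library of 24 h was below every library of 6 h at each dose, and replicate 2 was the lowest at 24 h. The log2 fold changes were -1.25 ± 0.18 (SE) at 0 Gy, -1.08 ± 0.15 at 0.1 Gy and -1.08 ± 0.19 at 2 Gy, with edgeR adjusted p = 0.00831, 0.00540 and 0.0151. The call held at 0 and 0.1 Gy whichever library was left out. At 2 Gy it was lost without replicate 1 or 3 of 6 h and without replicate 1 or 4 of 24 h, with edgeR adjusted p of up to 0.0601.

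The other 3 transporters were not called at any dose in the fit without the block. With the block and the GC and length correction together, Slc16a1, which encodes the lactate transporter MCT1, had an edgeR adjusted p = 0.0308 at 0.1 Gy and 0.0264 at 2 Gy. At 0 Gy, where the libraries of replicate 3 did not deviate together, that fit gave Slc2a3 and Slc16a3 an edgeR adjusted p = 0.0359 and 0.0343. Slc2a3 had group means of 51.4 ± 24.9 CPM at 6 h and 39.9 ± 12.7 CPM at 24 h in mock-irradiated cells (SD, n = 4), and its log2 fold changes were -0.38, -0.21 and 0.04 at 0, 0.1 and 2 Gy. Slc16a1 gave 0.13 to 0.24 on this scale. Slc16a3 gave -0.59 at 0 Gy, -0.13 at 0.1 Gy and 0.12 at 2 Gy, with SEs of 0.45 to 0.58, the widest of the transporters.

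In upper glycolysis, Hk2 (chr6:82725025-82774454, minus strand) was the gene that changed. It encodes hexokinase 2, the inducible hexokinase that sits on the outer membrane of mitochondria. In replicates 1 to 4 it was at 169.5, 134, 166 and 111 CPM 6 h after mock irradiation and at 64.8, 58.3, 95.2 and 69.3 CPM 24 h after it. At 0.1 Gy the values were 153, 129.98, 166 and 138 CPM at 6 h and 66.5, 72.7, 84.5 and 67.8 CPM at 24 h, and at 2 Gy 163, 114, 136 and 106 CPM at 6 h and 65.5, 63.6, 61.2 and 63.0 CPM at 24 h. The times did not overlap at any dose, and the 4 libraries taken 24 h after 2 Gy were nearly equal to each other. Hk2 fell by 1.03, 1.03 and 1.05 on the log2 scale at 0, 0.1 and 2 Gy, with SEs of 0.19, 0.11 and 0.15 and edgeR adjusted p = 0.0182, 0.00260 and 0.00878. At 0 Gy the call was lost without replicate 1 or 3 of 6 h and without replicate 1 or 4 of 24 h, with edgeR adjusted p of up to 0.0815, and at the other doses it held in all 8 such fits.

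Hk1, the housekeeping hexokinase, stayed within 172 to 185 CPM as group means, and its log2 fold changes from 6 h to 24 h were -0.09, 0.03 and -0.00 with SEs of at most 0.18. The other 6 genes of this group, Gpi1 (glucose 6-phosphate isomerase), the phosphofructokinase subunits Pfkl, Pfkm and Pfkp, Aldoa and Tpi1 (triosephosphate isomerase), were not called at any dose either in the fit without the block. Tpi1, in the blocked fit with the GC and length correction, had an edgeR adjusted p = 0.0492 at 0.1 Gy. Their log2 fold changes lay between -0.20 and 0.05 in mock-irradiated cells, between 0.06 and 0.30 at 0.1 Gy and between 0.05 and 0.45 at 2 Gy. Pfkp at 2 Gy was the only 1 of them whose times did not overlap, with group means of 240.5 ± 8.54 CPM at 6 h and 286 ± 45.3 CPM at 24 h and an edgeR adjusted p = 0.327.

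Pfkfb3 and Pfkfb4 make and break down fructose 2,6-bisphosphate, the strongest activator of phosphofructokinase. Pfkfb3 was at 184, 127, 180.4 and 151 CPM in replicates 1 to 4 at 6 h and 141, 104, 112 and 144 CPM at 24 h in mock-irradiated cells. The values were 198, 132, 164 and 191 CPM at 6 h and 125, 104, 136 and 124 CPM at 24 h after 0.1 Gy, and 164, 129, 161 and 171 CPM at 6 h and 129, 101, 112 and 133 CPM at 24 h after 2 Gy. The times overlapped at every dose, but all same-numbered pairs were lower at 24 h. The log2 fold changes were -0.38 ± 0.17, -0.50 ± 0.14 and -0.41 ± 0.14 (SE), with edgeR adjusted p = 0.198, 0.0538 and 0.121 at 0, 0.1 and 2 Gy. With the replicate block the edgeR adjusted p was 0.00884 at 0.1 Gy and 0.0442 at 2 Gy, and without replicate 2, with no block, it was 0.0238 and 0.149. At 0.1 Gy the call was also made with all 24 libraries in 1 fit, with an edgeR adjusted p = 0.0383, and by DESeq2, with an adjusted p = 0.0445.

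Pfkfb4 was lower overall. In replicates 1 to 4 it was at 28.7, 14.9, 24.0 and 29.6 CPM at 6 h and 13.7, 6.52, 18.9 and 15.4 CPM at 24 h in mock-irradiated cells. The values were 28.8, 12.5, 22.5 and 27.6 CPM at 6 h and 17.7, 8.94, 19.5 and 19.5 CPM at 24 h at 0.1 Gy, and 27.4, 13.8, 24.7 and 26.1 CPM at 6 h and 16.1, 9.15, 25.0 and 17.0 CPM at 24 h at 2 Gy. Replicate 2 was the lowest library of every group, and within replicate numbers all pairs were lower at 24 h except replicate 3 at 2 Gy. For Pfkfb4 the fits gave log2 fold changes of -0.85 ± 0.33, -0.50 ± 0.31 and -0.47 ± 0.32 (SE), with edgeR adjusted p = 0.146, 0.342 and 0.427. With the replicate block the edgeR adjusted p at 0.1 Gy was 0.0176, and without replicate 2 it was 0.0410 at 0 Gy. With the block and the GC and length correction it was 0.00390 at 0.1 Gy and 0.0215 at 2 Gy.

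None of the 6 genes of lower glycolysis was called at any dose in the main test, with 1 at an unadjusted p under 0.05 at 0 Gy and 0 at the other doses. Over all genes tested, the unadjusted edgeR p was under 0.05 for 3931 of 15887, 4299 of 16250 and 3705 of 16002 at 0, 0.1 and 2 Gy. Eno2, the enolase best known from neurons, came nearest. It was at 31.98, 26.4, 25.9 and 28.5 CPM at 6 h and 16.1, 13.7, 25.4 and 20.2 CPM at 24 h in mock-irradiated cells, where the times did not overlap. At 0.1 Gy it was at 28.8, 26.9, 22.0 and 25.8 CPM at 6 h and 16.5, 19.1, 24.5 and 25.5 CPM at 24 h, and at 2 Gy at 33.6, 24.9, 28.7 and 24.8 CPM at 6 h and 19.6, 21.7, 28.4 and 24.4 CPM at 24 h, where they did. Eno2 had log2 fold changes of -0.60 ± 0.20, -0.30 ± 0.16 and -0.26 ± 0.17 (SE) with edgeR adjusted p = 0.107, 0.288 and 0.403. Eno2 was called at 0 Gy with all 24 libraries in 1 fit (edgeR adjusted p = 0.0329). In mock-irradiated cells, where the libraries of replicate 3 did not deviate together, the block with the GC and length correction gave Eno2 an edgeR adjusted p = 0.0267. Among fits without 1 library, leaving out replicate 3 of 24 h alone brought the call at 0 Gy, with an edgeR adjusted p = 0.0220. Gapdh went from 1662 ± 210.3 to 1486 ± 375 CPM in mock-irradiated cells (SD, n = 4), and its log2 fold changes of -0.18, -0.03 and -0.08 were each below their SE of 0.20, 0.15 and 0.22. For Pgk1, Pgam1 (phosphoglycerate mutase), Eno1 and Pkm the log2 fold changes were -0.26, -0.33, -0.12 and -0.34 at 0 Gy and between 0.03 and 0.11 at 2 Gy.

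At the branch point of pyruvate, Pdk2 (chr11:95026258-95041354, minus strand) rose. Pdk2 is 1 of the kinases that shut off pyruvate dehydrogenase. In mock-irradiated cells it was at 21.4, 29.0, 19.1 and 37.9 CPM in replicates 1 to 4 at 6 h and at 59.1, 52.7, 66.5 and 64.4 CPM at 24 h. After 0.1 Gy it was at 17.2, 29.1, 18.1 and 29.1 CPM at 6 h and 64.7, 60.6, 78.6 and 77.3 CPM at 24 h, and after 2 Gy at 24.0, 31.3, 20.8 and 27.9 CPM at 6 h and 66.0, 65.0, 95.5 and 71.4 CPM at 24 h. All libraries of 24 h were above all of 6 h at each dose. Pdk2 had log2 fold changes of 1.16 ± 0.22, 1.56 ± 0.21 and 1.51 ± 0.18 (SE), which is 2.23-fold, 2.96-fold and 2.84-fold, with edgeR adjusted p = 0.0198, 0.00470 and 0.00508. At 0 Gy the call was lost without replicate 1 or 3 of 6 h and without replicate 1 or 4 of 24 h, with edgeR adjusted p of up to 0.0770, and it held in all such fits at 0.1 and 2 Gy. Pdk1, the kinase best known as a hypoxia target, had log2 fold changes of 0.35, 0.33 and 0.42 and Pdk3 of 0.34, -0.05 and -0.22, none of them called without the block. In the blocked fit with the GC and length correction Pdk1 had an edgeR adjusted p = 0.00629 at 0.1 Gy and 0.00915 at 2 Gy. The lactate dehydrogenases were not called either. Ldha gave -0.28, -0.05 and 0.02, and Ldhb gave -0.19, 0.12 and 0.32 with SEs of up to 0.36.

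Among the hypoxia targets, Vegfa and Bnip3 went opposite ways. Vegfa (chr17:46016993-46032369, minus strand) encodes the growth factor that drives the growth of vessels. In replicates 1 to 4 it was at 119, 158, 92.7 and 75.4 CPM at 6 h and 42.9, 73.5, 44.9 and 37.4 CPM at 24 h without radiation. It was at 118, 161, 90.5 and 93.4 CPM at 6 h and 44.6, 85.3, 43.4 and 41.5 CPM at 24 h at 0.1 Gy, and at 117, 142, 92.3 and 80.3 CPM at 6 h and 43.4, 78.7, 35.8 and 40.1 CPM at 24 h at 2 Gy. Replicate 2 was the highest library in each of the 6 groups, and the times still did not overlap. The log2 fold changes were -1.18 ± 0.28, -1.13 ± 0.29 and -1.13 ± 0.29 (SE) with edgeR adjusted p = 0.0388, 0.0399 and 0.0481. The log2 fold change stayed between -1.46 and -0.91 whichever library was left out, but at 0.1 and 2 Gy the call held only without replicate 2 of 24 h. At 0 Gy it was lost without replicate 1, 2 or 3 of 6 h and without replicate 1 or 4 of 24 h, with edgeR adjusted p of up to 0.130. Correcting the fit for GC content and length of the genes ended the call at 0 Gy and 2 Gy, with edgeR adjusted p = 0.0516 and 0.0508. With all replicate 2 libraries left out, the edgeR adjusted p was 0.0102, 0.00178 and 0.0115 at 0, 0.1 and 2 Gy.

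Bnip3 (chr7:138890836-138909519, minus strand) marks mitochondria for removal. It was at 24.1, 23.8, 22.0 and 29.4 CPM at 6 h and 42.0, 35.4, 30.3 and 32.8 CPM at 24 h in mock-irradiated cells. The values were 24.7, 25.4, 22.0 and 23.5 CPM at 6 h and 34.9, 32.3, 30.7 and 37.7 CPM at 24 h after 0.1 Gy, and 27.2, 26.9, 18.8 and 27.9 CPM at 6 h and 38.4, 30.6, 27.9 and 33.0 CPM at 24 h after 2 Gy. The times did not overlap at 0 and 0.1 Gy, while at 2 Gy the lowest library of 24 h was just under the highest of 6 h. The log2 fold changes were 0.48 ± 0.16, 0.48 ± 0.11 and 0.35 ± 0.17 (SE) with edgeR adjusted p = 0.0954, 0.0303 and 0.265. The call at 0.1 Gy was lost without replicate 1, 3 or 4 of 6 h and without replicate 1 or 4 of 24 h, with edgeR adjusted p of up to 0.101. At 0 Gy Bnip3 passed without replicate 3 of 24 h, with an edgeR adjusted p = 0.0367. With all 24 libraries in 1 fit it passed at 0 Gy too, with an edgeR adjusted p = 0.0181. Without the filter on low counts the edgeR adjusted p at 0.1 Gy was 0.0762. With the block and the GC and length correction it was 0.00166 at 0.1 Gy and 0.0120 at 2 Gy. The interaction of dose and time was not called for Bnip3 at either dose. The other 4 hypoxia targets were not called at any dose. Egln3, an oxygen-sensing prolyl hydroxylase, gave log2 fold changes of -0.06, -0.07 and -0.15, and Ndrg1, a stress-responsive gene, gave -0.04, -0.01 and 0.12. Car9 and Ankrd37 gave values between -0.36 and 0.24 with SEs of 0.33 to 0.46.

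**Figure D3:**
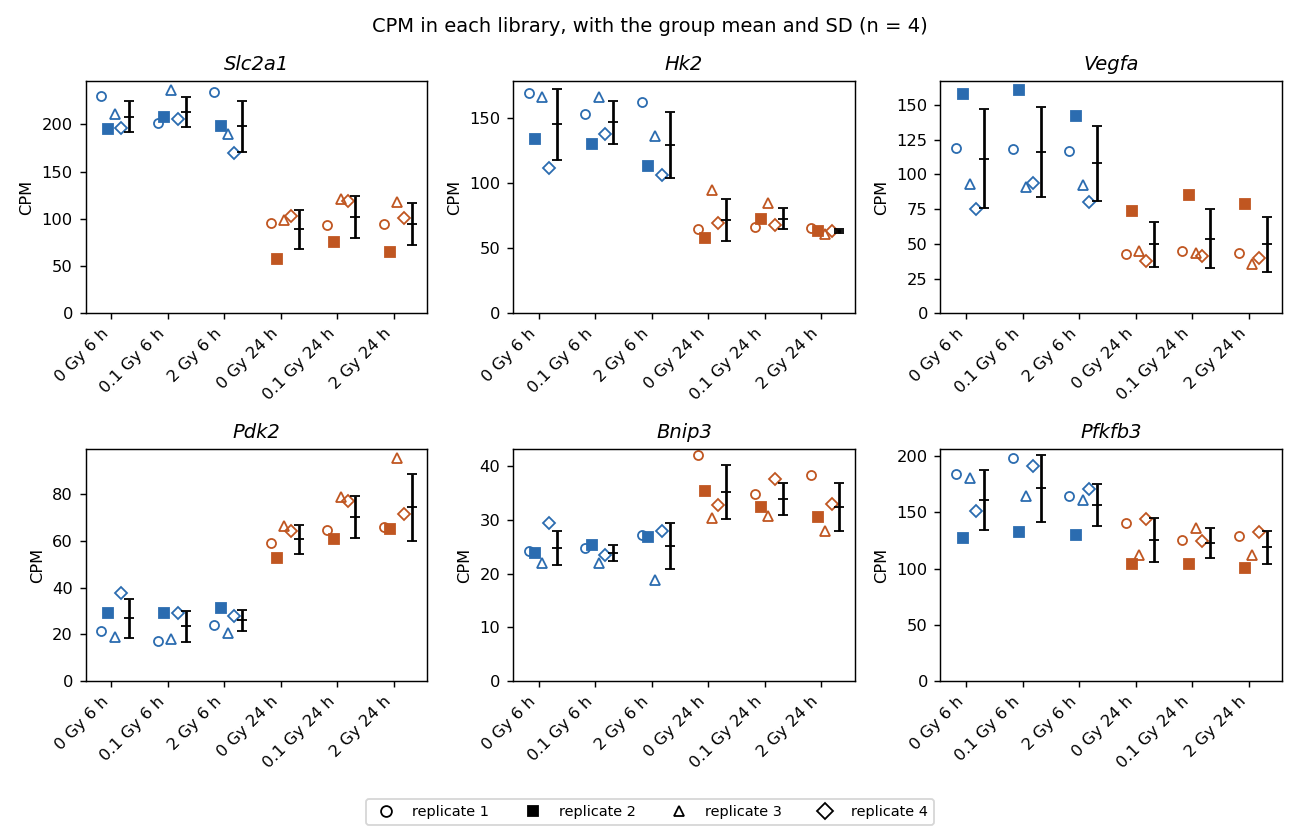
CPM in each library by group for Slc2a1, Hk2, Vegfa, Pdk2, Bnip3 and Pfkfb3, with the symbol giving the replicate number, filled squares for replicate 2, blue for 6 h and orange for 24 h, and black bars for the group mean ± SD (n = 4). Slc2a1, Hk2 and Vegfa are lower and Pdk2 is higher at 24 h than at 6 h of the same dose without overlap, although Vegfa in replicate 2 at 24 h reaches the lowest 6 h values of other doses. Replicate 2 is the highest Vegfa value in each group.

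The upstream sequence of the 5 called genes is shown because several of them are known targets of the hypoxia-inducible factors. The sequences are from RefSeq on GRCm38.p6, read 5′ to 3′ on the gene's strand, and end at the RefSeq start or, for Slc2a1 and Bnip3, just before the gene model used for counting. Capitals mark ACGTG or GCGTG on either strand, so that CACGT and CACGC are the same letters read from the other strand and CACGTG holds ACGTG on both.
Slc2a1 (chr4:119108495-119108710, plus strand): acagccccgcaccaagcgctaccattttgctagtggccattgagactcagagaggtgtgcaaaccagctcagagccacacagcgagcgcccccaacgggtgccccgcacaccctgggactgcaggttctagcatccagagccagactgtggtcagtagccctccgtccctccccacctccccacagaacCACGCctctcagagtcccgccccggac
Hk2 (chr6:82774455-82774704, minus strand): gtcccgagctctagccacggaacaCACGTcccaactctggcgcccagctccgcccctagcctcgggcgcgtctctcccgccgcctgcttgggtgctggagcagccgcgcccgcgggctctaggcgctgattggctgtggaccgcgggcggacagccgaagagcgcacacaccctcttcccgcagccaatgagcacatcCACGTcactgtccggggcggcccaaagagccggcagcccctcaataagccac
Vegfa (chr17:46032378-46032627, minus strand): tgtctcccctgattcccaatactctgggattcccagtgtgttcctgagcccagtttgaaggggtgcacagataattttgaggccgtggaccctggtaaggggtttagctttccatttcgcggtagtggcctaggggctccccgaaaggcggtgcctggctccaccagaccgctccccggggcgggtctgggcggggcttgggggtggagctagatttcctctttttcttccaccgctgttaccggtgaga
Pdk2 (chr11:95041372-95041621, minus strand): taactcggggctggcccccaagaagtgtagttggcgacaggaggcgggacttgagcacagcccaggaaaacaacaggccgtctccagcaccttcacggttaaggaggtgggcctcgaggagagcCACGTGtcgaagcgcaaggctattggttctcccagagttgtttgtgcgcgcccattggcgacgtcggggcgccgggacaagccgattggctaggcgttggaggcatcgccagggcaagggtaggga
Bnip3 (chr7:138909520-138909756, minus strand): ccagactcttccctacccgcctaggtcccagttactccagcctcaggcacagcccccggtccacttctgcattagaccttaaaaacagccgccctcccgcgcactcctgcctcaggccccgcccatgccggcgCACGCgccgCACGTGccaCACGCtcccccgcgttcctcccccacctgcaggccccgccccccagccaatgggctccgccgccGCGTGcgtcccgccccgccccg
In these stretches Hk2 held 2 matches, Slc2a1 held 1, Vegfa held 0, Bnip3 held 5 and Pdk2 held 2, counting a CACGTG as 1 match on each strand. These counts depend on the start and the cut. The full window of Slc2a1 held 2, since the 34 bases left out here take in part of another match, and the windows of other RefSeq starts held 2 for Vegfa and 0 for Pdk2. RefSeq windows were found for 29 of the 31 genes, in all but Slc2a3 and Ndrg1, with 43 windows in total since some genes have several starts. In the 250 bases before the start, 33 of the 43 windows (76.7%) held ACGTG or GCGTG, and so did 38.6% of all 32851 windows. The palindrome CACGTG stood in 6 of the 43 windows (14%) and in 6.02% of all windows. The 43 windows were also richer in G and C, with a median of 60.4% against 52.4% in all windows, and the part of this in the motif shares was not tested. Such a match is a run of letters and not a measured binding site.

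Of 24 genes of the pyruvate dehydrogenase complex and the citric acid cycle, all tested, 1 rose and 1 fell at 0 Gy and at 0.1 Gy, and 1 fell at 2 Gy. Together these were 2, 2 and 1 of the 24, where 6.7%, 9.9% and 6.95% of all genes tested were called at 0, 0.1 and 2 Gy. Pdp2, a phosphatase that switches pyruvate dehydrogenase back on, fell from 41.0 ± 10.2 to 11.8 ± 2.79 CPM (SD, n = 4) in mock-irradiated cells, with log2 fold changes of -1.81, -1.97 and -1.75 at 0, 0.1 and 2 Gy and edgeR adjusted p = 0.00565, 0.00436 and 0.00436. Pdk4, another pyruvate dehydrogenase kinase, rose from 16.9 ± 2.04 to 32.1 ± 5.93 CPM in mock-irradiated cells and at 0.1 Gy, with edgeR adjusted p = 0.0198 and 0.0254, and gave a log2 fold change of 0.59 with an edgeR adjusted p = 0.162 at 2 Gy. The median log2 fold change of this list was -0.01, 0.01 and 0.01 at the 3 doses, beside -0.02, -0.01 and -0.00 over all tested genes.

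Of 26 other genes of the hypoxia pathway, 25 were tested. At 0 Gy 1 rose, the histone demethylase Kdm3a (log2 fold change 0.79), and 2 fell, the mTOR inhibitor Ddit4 (-0.86) and the transcription factor Bhlhe40 (-0.94). At 0.1 and 2 Gy only Bhlhe40 fell, by 1.15 and 0.99 on the log2 scale. Hif1a, the inducible alpha subunit itself, was not called, with log2 fold changes of -0.14, -0.76 and -0.87 and SEs of up to 0.37. Epas1, Egln1 and Vhl were not called either. The medians of this list were 0.02, 0.11 and 0.05.

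Of 27 other genes of glycolysis and gluconeogenesis, 20 were tested. At 0 Gy 1 rose and 1 fell, at 0.1 Gy 1 rose and 2 fell, and at 2 Gy 1 fell. Tigar, a phosphatase that breaks down fructose 2,6-bisphosphate, fell at 0 and 0.1 Gy by 0.86 and 0.72 on the log2 scale, and Pgm2, a phosphoglucomutase, fell at 0.1 and 2 Gy by 0.79 and 0.91. Txnip, which curbs glucose uptake and removes GLUT1 from the surface, rose from 74.8 ± 27.4 to 158 ± 39.7 CPM at 0.1 Gy (edgeR adjusted p = 0.0426) and gave log2 fold changes of 1.04 and 1.05 at 0 and 2 Gy, where the edgeR adjusted p was 0.0582 and 0.0639. Its relative Arrdc4 rose at 0 Gy by 0.75. Of 9 genes of the pentose phosphate pathway, Rpia fell at 0 Gy and 0.1 Gy, calls that were lost without the filter on low counts. Of 13 genes of glycogen metabolism, the phosphorylase Pygb rose at 0.1 and 2 Gy by 0.90 and 0.90. The list medians at 0, 0.1 and 2 Gy were -0.10, 0.14 and 0.24 for glycolysis and gluconeogenesis, -0.26, 0.03 and -0.08 for the pentose phosphate pathway and 0.21, 0.09 and -0.06 for glycogen. With any 1 library left out, the calls held for Pdp2 at each dose, for Bhlhe40 and Pgm2 at 0.1 and 2 Gy, and for Tigar and Pygb at 0.1 Gy, and the other calls of these lists were each lost without replicate 1 and without replicate 3 of 6 h, and in up to 5 further fits, with edgeR adjusted p of up to 0.152. Higher and lower calls together took 6.7%, 9.9% and 6.95% of all genes tested at 0, 0.1 and 2 Gy. Without replicate 2 the calls at 0, 0.1 and 2 Gy numbered 1, 2 and 1 in the hypoxia list, 2, 4 and 1 in glycolysis and gluconeogenesis, 2, 2 and 1 for pyruvate dehydrogenase and the citric acid cycle, 1, 1 and 0 in the pentose phosphate pathway and 1, 1 and 1 for glycogen. The counts of these lists with the replicate block are not given here. Under the alternative settings with no single library left out, 16 counts moved and 24 did not at 0 Gy. At 0.1 Gy and at 2 Gy 13 moved and 27 did not.

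Between cultures, several of the 31 genes followed replicate 2, the replicate with the low microglia markers. Its summed neuron markers did not overlap with the others either, at 637 to 756 CPM against 443 to 604 CPM. In 5 of the 31 genes (16.1%) the 6 libraries of replicate 2 did not overlap with the 18 others, and this held for 11.3% of all 17144 genes tested. Slc2a3 was at 58.5 to 87.9 CPM in replicate 2 and 27.5 to 45.6 CPM in the others, and Car9 at 9.27 to 14.9 CPM in replicate 2 and 2.86 to 6.65 CPM in the others. Slc16a3 was at 3.49 to 7.86 CPM in replicate 2 and 10.6 to 34.2 CPM in the others. For Ldhb the levels were 278 to 330.0 CPM in replicate 2 and 498 to 1118 CPM in the others, and for Tpi1 they were 179 to 217 CPM in replicate 2 and 218 to 462 CPM in the others. Replicate 2 was thus high in the glucose transporter GLUT3 and in carbonic anhydrase 9, and low in the lactate exporter MCT4. It was the highest library in all 6 groups for 3 genes, Slc2a3, Car9 and Vegfa, and the lowest in all 6 for 8 genes, which also took in Pfkfb3, Pfkfb4, Aldoa, Pkm and Pdk1 beside Tpi1, Ldhb and Slc16a3. The shares of all genes highest or lowest in replicate 2 in every group were not counted. Over both times together the medians differed most for Slc16a3, 3.52-fold, then for Car9 at 2.23-fold, Pfkfb4 at 2.15-fold and Slc2a3 at 2.13-fold, and that of the summed microglia markers 7.69-fold. Within the times, Slc2a1 was at 195 to 208 CPM in replicate 2 and 169.9 to 237 CPM in the others at 6 h, and at 57.6 to 75.3 CPM in replicate 2 and 93.2 to 121 CPM in the others at 24 h, where the libraries did not overlap and the medians differed 1.54-fold. Vegfa did not overlap within either time, with medians 1.70-fold and 1.84-fold higher in replicate 2 at 6 h and 24 h. The libraries of Hk2, Ldha, Pgk1, Slc16a1 and Bnip3 overlapped at both times, and their medians differed by at most 1.18-fold. These are the values of 1 replicate number against 3, without a test, and the part of the microglia and neuron shares in them was not tested.

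**Figure D4:**
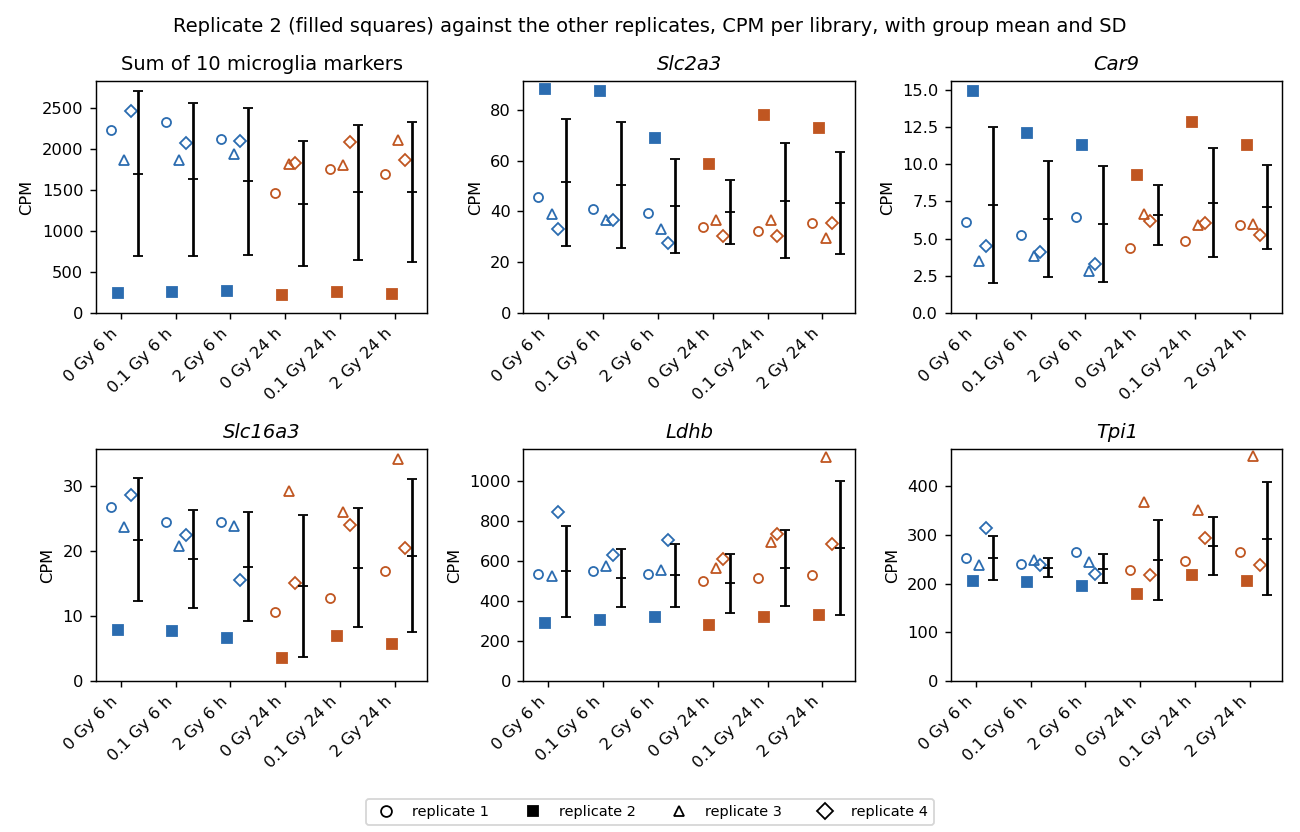
CPM per library by group for the sum of 10 microglia markers and for Slc2a3, Car9, Slc16a3, Ldhb and Tpi1, with filled squares for replicate 2, blue for 6 h, orange for 24 h and black bars for the group mean ± SD (n = 4). Replicate 2 lies below the other replicates in microglia markers, Slc16a3, Ldhb and Tpi1 and above them in Slc2a3 and Car9 in all 6 groups.

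Replicate 3 was high in many of the enzymes at 24 h. It was the highest of its group in 18 of the 31 genes at 0 Gy, 16 at 0.1 Gy and 19 at 2 Gy. At 2 Gy and 24 h it was at 2359 CPM for Gapdh, where the others were at 1224 to 1331, and at 1801 CPM for Aldoa, where the others were at 834 to 952. The library's deviation from the mean of all libraries was correlated with the GC content of the genes in these 3 libraries, with r = 0.369, 0.371 and 0.394 across 17098 genes, which are not independent replicates, beside a range of -0.532 to 0.308 in the other libraries. At 6 h, replicate 4 of 0 Gy was the highest of its group in 19 of the 31 genes and replicate 1 of 2 Gy in 16. The share of all genes that were highest in each of these libraries was not counted. Library and GC content therefore moved with the levels of these enzymes, and their part in the values was not tested. In mock-irradiated cells, 14 of the 15 core enzymes from Hk1 to Ldhb, Hk2 left out, had a log2 fold change below 0 from 6 h to 24 h, and at 2 Gy 12 of 15 had one above 0. After correcting for the GC content and length of the genes, 8 of 15 were below 0 at 0 Gy and 10 of 15 above 0 at 2 Gy, and the median at 0 Gy went from -0.19 to -0.06. None of these 15 was called over time in the main test, which fits all 8 libraries of a dose without the block. Eno2 was called at 0 Gy and Tpi1 at 0.1 Gy in other fits, given above.

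In the fit without the replicate block no gene of the 31 was called for dose, while with it Pfkl and Slc16a3 were called at 24 h. At 6 h and at 24 h, 0 genes were called for 0.1 Gy and for 2 Gy against mock irradiation, by edgeR without the block, with and without replicate 2, and by DESeq2, and 0 of the 31 had an unadjusted p under 0.05 in edgeR. In these edgeR fits 0% of all genes were called in each of these 4 comparisons. With all replicates and no block, the unadjusted edgeR p at 0.1 Gy was under 0.05 for 24 of 16020 genes at 6 h and 241 of 16183 at 24 h. At 2 Gy it was so for 215 of 15994 genes at 6 h and 570 of 15892 at 24 h. This fit does not use the replicate numbers, so its counts do not show that dose left the 31 genes unchanged. DESeq2 called 100 of 15283 genes (0.654%) for 2 Gy at 24 h, 1 gene for 2 Gy at 6 h and 0 for 0.1 Gy, and edgeR with all 24 libraries in 1 fit called 108 genes (0.622%) for 2 Gy at 24 h and 0 otherwise, none of them among the 31. At 6 h the log2 fold changes lay between -0.21 and 0.23 for 0.1 Gy and between -0.30 and 0.18 for 2 Gy. At 24 h they lay between -0.35 and 0.37 and between -0.37 and 0.45, and their medians were 0.16 and 0.13, beside -0.01 and 0.01 over all tested genes. After the GC and length correction these medians were 0.07 and 0.08. The 4 genes called over time had log2 fold changes with dose at 24 h of 0.19 and 0.09 for Slc2a1, 0.01 and -0.18 for Hk2, 0.11 and 0.00 for Vegfa and 0.20 and 0.30 for Pdk2, at 0.1 and 2 Gy in turn. All 15 core enzymes named above had a log2 fold change above 0 at 24 h for both doses, with medians of 0.17 and 0.24, and 13 of 15 at each dose after the GC and length correction, with medians of 0.07 and 0.15. At 6 h 14 of 15 were below 0 for both doses, with medians of -0.08 and -0.06, and after the correction 14 for 0.1 Gy and 9 for 2 Gy. The mock-irradiated libraries of each time served both doses, so the tallies of the doses are not independent of each other.

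Same-numbered libraries deviated together in the dose comparisons. With the replicate block, 0 of the 31 genes and 0% of all genes were called at 6 h. At 24 h the block called 1 gene for 0.1 Gy, Pfkl, beside 6.84% of all genes, and 2 for 2 Gy, Pfkl and Slc16a3, beside 13.2%. Pfkl, the liver-type subunit of phosphofructokinase, was at 56.6 ± 20.96 CPM at 0 Gy, 73.9 ± 16.7 at 0.1 Gy and 75.8 ± 23.5 at 2 Gy (SD, n = 4), with blocked edgeR adjusted p = 0.0417 and 0.0246, which became 0.112 and 0.0986 with the GC and length correction in the same fit. Slc16a3 had a blocked edgeR adjusted p = 0.0321, and 0.0824 with that correction. The corrected blocked fit called Pfkp for 0.1 Gy at 24 h (edgeR adjusted p = 0.0494), beside 1.99% of all genes, and none of the 31 for 2 Gy, beside 3.58%. The shares called by the block alone lay below the background, and the log2 fold changes of the 2 doses at 24 h correlated with GC content across genes, with r = 0.587 and 0.559.

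Whether the change with time differed between doses was tested by the interaction of dose and time. On simulated data this fit at 2 Gy called 59.5% of the genes changed by 2 on the log2 scale, so smaller differences can be missed. At 0.1 Gy and at 2 Gy 0 of the 31 genes were called by edgeR without the block, with and without replicate 2, and by DESeq2. Over all genes these edgeR fits called 0% at both doses and DESeq2 called 0 at 0.1 Gy and 7 at 2 Gy. Over all genes tested the unadjusted edgeR p was under 0.05 for 431 of 17040 at 0.1 Gy and 827 of 16866 at 2 Gy. Among the 31 it was under 0.05 for 0 and 1. That gene was Pdk3, a pyruvate dehydrogenase kinase, with a difference of -0.55 ± 0.24 (SE) on the log2 scale at 2 Gy. For the genes called over time the differences at 2 Gy against 0 Gy were 0.18 ± 0.27 for Slc2a1, -0.01 ± 0.25 for Hk2, 0.05 ± 0.41 for Vegfa and 0.35 ± 0.29 for Pdk2. At 0.1 Gy against 0 Gy they were 0.17 ± 0.25, 0.00 ± 0.23, 0.05 ± 0.42 and 0.41 ± 0.31. With the replicate block within each time, 3 genes were called for 0.1 Gy (Pfkl, Pfkm and Pdk2), beside 8.87% of all genes, and 2 for 2 Gy (Pfkl and Slc16a3), beside 6.78%. With the GC and length correction in the blocked fit, Slc2a3 was called for 2 Gy (edgeR adjusted p = 0.0420), beside 2.05% of all genes, and none of the 4 genes called by the block alone passed, with edgeR adjusted p of 0.137, 0.282 and 0.656 at 0.1 Gy and 0.103 and 0.0563 at 2 Gy.

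**Figure D5:**
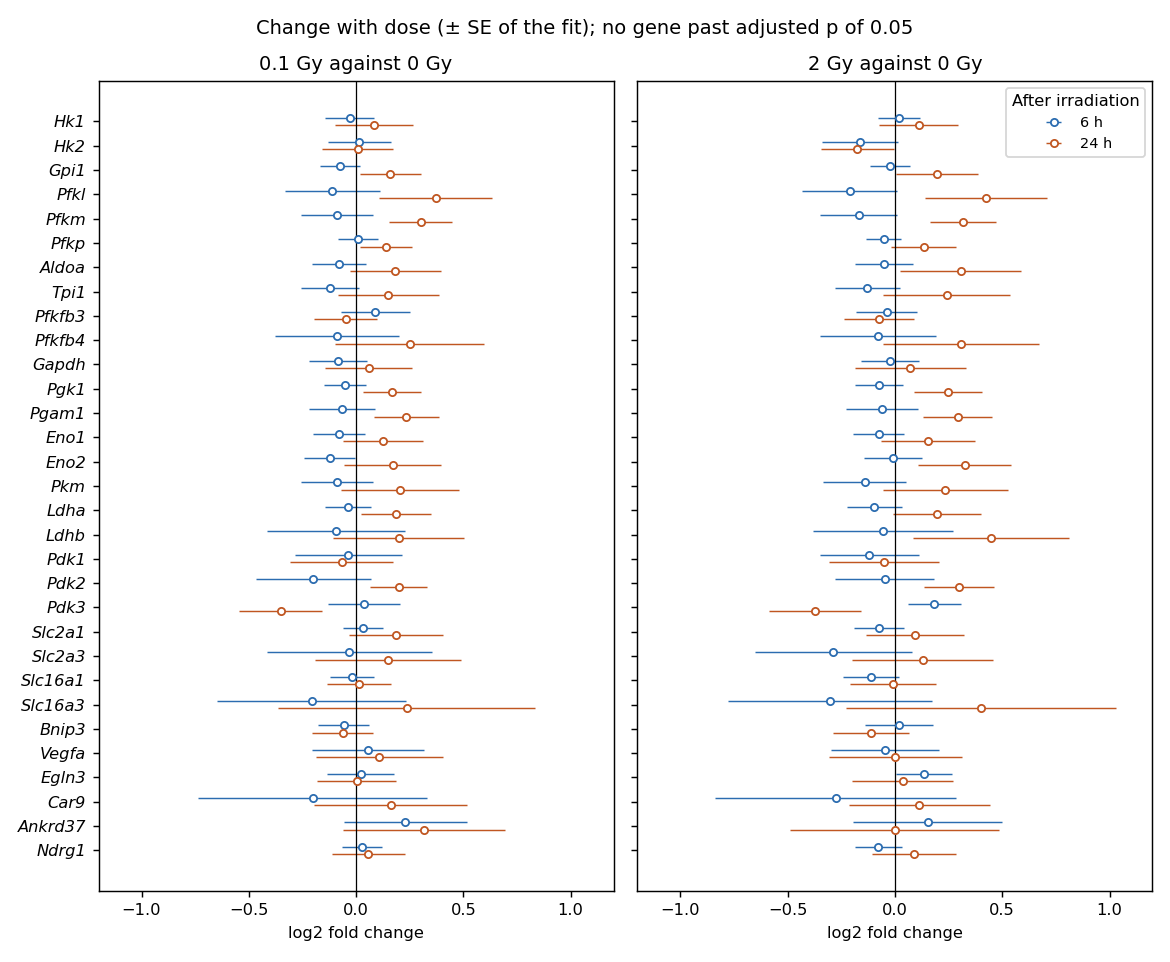
Log2 fold change of 0.1 Gy (left) and 2 Gy (right) against mock-irradiated cells for each of the 31 genes, blue for 6 h and orange for 24 h, with bars for the SE of the fit. No gene passed an adjusted p of 0.05 in the fit shown, which has no replicate block, and at 24 h the values lie between -0.37 and 0.45.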

How the data were processed

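Per the labels, polyadenylated RNA of 24 libraries was sequenced in paired reads and aligned to mm10. The authors deposited raw counts per gene and library. The aligner, the counter and whether strand was used are not given in the sources used here. The members and gene lists were chosen with earlier results of these data known. Genes were tested with edgeR 4.0.16 (TMM, default filter on low counts, quasi-likelihood F test, Benjamini-Hochberg adjustment over all tested genes, adjusted p under 0.05) on the libraries of each comparison, and the fits over time and of the interaction of 2 Gy were tested on simulated data. Of 200 genes changed by 2 on the log2 scale, 75% to 80% were called over time and 59.5% for the interaction. The dose comparisons and smaller changes were not simulated. CPM used 17353 genes kept over all libraries. Total counts were 14742855 to 38194800 per library, and intervals from replicates cover the spread between the biological repeats only. Same-numbered libraries were taken as paired where the deviations from the group means of every pair correlated above 0.1, which held in all comparisons (r = 0.211 to 0.949) except 24 h against 6 h at 0 Gy. There r was -0.00 for replicate 3 and 0.42 to 0.84 for the others. In the dose comparisons every mock-irradiated library correlated best with its own number. Over time at 2 Gy replicate 1 (r = 0.211) did not. Alternatives were DESeq2 1.42.0, DESeq2 size factors, no filter, all libraries in 1 fit, a minimum log2 fold change of 1, a correction for GC content and length (splines with 5 degrees of freedom), the replicate block, leaving out each library and, added after seeing the data, leaving out replicate 2. Genes called in at least 1 time comparison, and the gene of lowest p in each role, are described by library, and others by means and ranges.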

Additional observations from a re-analysis of the deposited data

Results flagged for a closer look

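In 18 of the 186 combinations of a gene and a group, 1 library lay apart from the other 3 by Dixon's criterion, or 9.68%, where chance alone gives about 1 in 20. Over all 17144 genes tested the share was 7.94% of the combinations, which come from the same 24 libraries. Replicate 2 was high in 3 genes. For Slc2a3 it was at 87.2 CPM in the 0.1 Gy 6 h group, beside 36.6 to 41.1 in the others, 77.8 CPM in the 0.1 Gy 24 h group, beside 30.2 to 36.7 in the others and 73.0 CPM in the 2 Gy 24 h group, beside 29.7 to 35.5 in the others. For Vegfa it was at 85.3 CPM in the 0.1 Gy 24 h group, beside 41.5 to 44.6 in the others. For Car9 it was at 12.1 CPM in the 0.1 Gy 6 h group, beside 3.85 to 5.24 in the others, 12.8 CPM in the 0.1 Gy 24 h group, beside 4.82 to 6.07 in the others and 11.3 CPM in the 2 Gy 24 h group, beside 5.27 to 5.99 in the others. It was low for Pfkm at 168 CPM in the 2 Gy 24 h group, beside 186 to 187. Replicate 3 was high for Gpi1 at 560.5 CPM in the 2 Gy 24 h group, beside 351 to 386, Pfkp at 353 CPM in the 2 Gy 24 h group, beside 256 to 268 and Aldoa at 1801 CPM in the 2 Gy 24 h group, beside 834 to 952. It was also high for Gapdh at 1790.4 CPM in the 0.1 Gy 6 h group, beside 1483 to 1512, Gapdh at 2359 CPM in the 2 Gy 24 h group, beside 1224 to 1331, Eno1 at 1602 CPM in the 0 Gy 24 h group, beside 1007 to 1087 and Ldha at 453 CPM in the 0.1 Gy 24 h group, beside 359 to 373. It was low for Pfkm at 118 CPM in the 0.1 Gy 6 h group, beside 163 to 171 and Bnip3 at 18.8 CPM in the 2 Gy 6 h group, beside 26.9 to 27.9. Replicate 4 was high for Hk1 at 209.8 CPM in the 0.1 Gy 6 h group, beside 163 to 171. The summed microglia markers of replicate 2 were 222 to 266 CPM beside 1462 to 2471 in the others, and the part of this in the values was not tested.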

How the results depend on the processing

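No result of the 31 genes changed direction among called values. The number of the 31 genes called from 6 h to 24 h was 4, 5 and 4 at 0, 0.1 and 2 Gy. With 1 library left out it ranged from 1 to 6 at 0 Gy, 3 to 5 at 0.1 Gy and 2 to 4 at 2 Gy. Without replicates 1 or 3 of 6 h, or 1 or 4 of 24 h, 1 gene was left at 0 Gy and 2 at 2 Gy, and without replicates 1, 3 or 4 of 6 h, or 1 or 4 of 24 h, 3 were left at 0.1 Gy. At 0 Gy the rule for pairing was not met over time (r = -0.00 for replicate 3). With the replicate block, an alternative at each dose, the numbers were 5, 7 and 5, beside 15.3%, 25.7% and 19.2% of all genes. With the block and the correction for GC content and length together they were 9, 10 and 9 (29%, 32.3% and 29%; the genes added were Pfkfb3, Pfkfb4, Eno2, Slc2a3 and Slc16a3 at 0 Gy, Pfkfb3, Pfkfb4, Tpi1, Pdk1 and Slc16a1 at 0.1 Gy, and Pfkfb3, Pfkfb4, Pdk1, Slc16a1 and Bnip3 at 2 Gy), beside 26.6%, 36.3% and 28.7% of all genes, and with that correction alone 3, 5 and 3, beside 9.82%, 13.9% and 11.3%. DESeq2 gave 4, 6 and 4, beside 11.2%, 13.4% and 11.2% of all genes, and all 24 libraries in 1 fit gave 6, 6 and 4, beside 14.3%, 12.4% and 14.7%. Without the filter on low counts they were 4, 4 and 4 (12.9% each), beside 2.84%, 4.03% and 2.42% of the 29991, 30462 and 30115 genes then tested. Bnip3 was lost in that fit at 0.1 Gy, where its edgeR adjusted p was 0.0762. The cause of these differences was not tested.

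For the doses at 6 h, the replicate block called 0 genes. At 24 h it called 1 for 0.1 Gy and 2 for 2 Gy, and for the interactions 3 and 2. With the block and the GC and length correction, 1 was called for 0.1 Gy at 24 h (Pfkp), beside 1.99% of all genes, and 1 for the interaction of 2 Gy (Slc2a3), beside 2.05%. Leaving out any 1 library gave 0 in each of these comparisons. Depth limits Ankrd37 most, with 5 to 32 counts per library.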
